A study of Mus musculus with 34 samples.

Results

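The astrocyte homeostasis genes are 10 genes through which astrocytes keep the fluid around neurons stable, chosen by name from the 23951 genes listed in every file. They are Slc1a2, Slc1a3 and Glul for glutamate, Aqp4, Kcnj10 and Atp1b2 for water and potassium, Gja1 and Gjb6 for coupling between astrocytes, and Aldh1l1 and Aldoc for metabolism. All 10 were found in the files and all 10 passed the filter on low values in each comparison.

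The study asked what loss of the histone deacetylase HDAC1 does to the aged brain and to a mouse model of Alzheimer's disease. RNA-seq values were available here for 27 samples, 20 hippocampi and 7 preparations of GFAP+ nuclei. Controls (Hdac1f/f mice, n = 4) carried floxed Hdac1 without Cre. Hdac1 cKO mice (Hdac1f/f; Nestin-Cre, n = 5) lost Hdac1 in neurons and astrocytes, because the Nestin promoter drives Cre in neural progenitors, whereas their microglia kept it. Mice called 5XFAD (Hdac1f/f, 5XFAD, n = 6) carried the transgenes of that Alzheimer's disease model, which the Thy1 promoter drives in neurons. Compound mice (Hdac1 cKO; 5XFAD, n = 5) had both changes. The floxed allele was therefore shared by every group. Labels give 13 to 14 months for the control and Hdac1 cKO hippocampi and 13 months for the 5XFAD and compound hippocampi. Both these ages and the numbering of the samples split the hippocampi by 5XFAD. Whether the sets were handled apart is not stated, and such a difference could not be told apart from 5XFAD. The nuclei were sorted with an antibody to GFAP, the intermediate filament protein of astrocytes, from the cortices of 3 control mice and 4 mice of the Hdac1 cKO genotype, aged 13 months.

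Astrocytes clear glutamate from the synapse through the transporters GLT-1 (Slc1a2) and GLAST (Slc1a3), and glutamine synthetase (Glul) turns it into glutamine. Water leaves through aquaporin-4 (Aqp4), which is concentrated in the endfeet around blood vessels, and potassium is taken up through the channel Kir4.1 (Kcnj10) and by Na+/K+-ATPase, of which Atp1b2 is the glial beta subunit. Connexin 43 (Gja1) and connexin 30 (Gjb6) form the gap junctions that join astrocytes into a network. When astrocytes become reactive, as around amyloid plaques, they raise Gfap, and whether they keep these housekeeping functions is a common question in this tissue.

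Because the study linked Hdac1 loss to DNA damage at guanine-rich promoters, the promoters of the members were read for the GC box core, GGGCGG or its reverse complement CCGCCC. The study itself searched known transcription factor motifs in wider windows than those read here. A promoter without this core may therefore still hold guanine-rich sequence. RefSeq (GRCm38.p6) gave 300-base windows, from 250 bases before to 50 after the start, for 8 members, with 2 starts for Aldoc. Aqp4 and Atp1b2 are not among them. The core was in 5 of these 9 windows, against 35.6% of the 32817 windows searched. Kcnj10 had 3 matches (3 or more are in 10.7% of all windows), whereas Gja1 and Gjb6 had none. Those 3 windows are shown, as the richest in the core among the members and as the pair of connexin genes whose values are compared below. Each is given 5′ to 3′ on the gene's strand, with the core in capitals, at chr1:172340960-172341259 (+), chr10:56377050-56377349 (+) and chr14:57133562-57133861 (-).
Kcnj10: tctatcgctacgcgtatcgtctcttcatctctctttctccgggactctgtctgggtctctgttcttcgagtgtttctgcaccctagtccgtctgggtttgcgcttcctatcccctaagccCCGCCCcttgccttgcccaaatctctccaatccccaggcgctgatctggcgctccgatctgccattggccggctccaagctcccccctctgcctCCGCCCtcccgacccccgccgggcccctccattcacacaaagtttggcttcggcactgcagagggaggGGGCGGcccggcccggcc
Gja1: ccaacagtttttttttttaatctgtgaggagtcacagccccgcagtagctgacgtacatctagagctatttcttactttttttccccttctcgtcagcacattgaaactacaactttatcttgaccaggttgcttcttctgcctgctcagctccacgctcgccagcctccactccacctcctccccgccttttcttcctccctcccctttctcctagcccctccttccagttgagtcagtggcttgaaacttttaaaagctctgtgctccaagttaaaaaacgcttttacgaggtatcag
Gjb6: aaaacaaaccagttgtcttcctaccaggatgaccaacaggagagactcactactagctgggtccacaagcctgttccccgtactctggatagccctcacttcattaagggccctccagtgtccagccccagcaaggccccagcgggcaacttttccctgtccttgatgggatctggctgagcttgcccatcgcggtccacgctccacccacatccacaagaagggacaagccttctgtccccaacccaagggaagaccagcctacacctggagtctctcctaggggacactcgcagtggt

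In mm9 (GENCODE annotation of the NCBIM37 assembly) the 10 genes are protein coding. Slc1a2 is at chr2:102498816-102630941 and Slc1a3 at chr15:8584124-8660764. Glul spans chr1:155747074-155756853 and Kcnj10 chr1:174271341-174304216 on the same chromosome. Aqp4 is at chr18:15547903-15562193 and Atp1b2 at chr11:69413238-69419444. The connexin genes are at chr10:56097106-56110225 (Gja1) and chr14:57742140-57752448 (Gjb6). Aldh1l1 is at chr6:90436421-90550197 and Aldoc at chr11:78136470-78141283.

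Values are FPKM, fragment numbers scaled by transcript length and by the total mapped in a library. Differences are given on the log2(FPKM + 1) scale with 95% intervals, from limma across all genes with Benjamini-Hochberg adjustment, and a gene is said to have risen or fallen when its adjusted p was under 0.05. A gene was counted as a DEG where it differed at least 1.5-fold with p under 0.05 before adjustment, the thresholds that the study used. Levels were not ranked between genes, because the hippocampal libraries were made from 3′ ends and FPKM divides by the whole transcript length.

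Samples of a group correlated at 0.964 to 0.976 in the hippocampus and at 0.930 to 0.948 among the nuclei, across genes, and relative depth was most uneven in the compound mice (0.754 to 2.24). Hdac1 was at 5.91 to 10.7 FPKM in controls and 2.36 to 3.03 in Hdac1 cKO mice, and at 6.10 to 9.64 in 5XFAD and 1.15 to 2.52 in compound mice, without overlap by genotype. In the nuclei the Hdac1 cKO samples reached from 5.80 to 11.5 FPKM and the controls from 9.91 to 22.3, so the targeted gene overlapped there. The choroid plexus gene Ttr was uneven, at 576 FPKM in control 1 and 12903 to 20146 in the other controls, 56.5 to 1608 in Hdac1 cKO, 53.8 to 7892 in 5XFAD and 58.9 to 13910 in compound mice. In whole tissue, fewer cells of a type and less RNA per cell cannot be told apart.

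Across the 20 hippocampi, most of the homeostasis genes stayed within narrow bounds. The group means of Slc1a2, Slc1a3 and Aldoc differed by at most 1.08-fold between the lowest and the highest group, and those of Glul, Atp1b2, Aldh1l1, Kcnj10, Gjb6 and Gja1 by 1.17-fold to 1.36-fold. Aqp4 stood apart with 2.46-fold. Over the same mice Gfap, the marker of reactive astrocytes, averaged 25.1 ± 1.40 FPKM (SD, n = 4) in controls, 27.7 ± 3.76 (n = 5) in Hdac1 cKO, 97.5 ± 15.4 (n = 6) in 5XFAD and 115 ± 36.4 (n = 5) in compound mice.

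**Figure D1:**
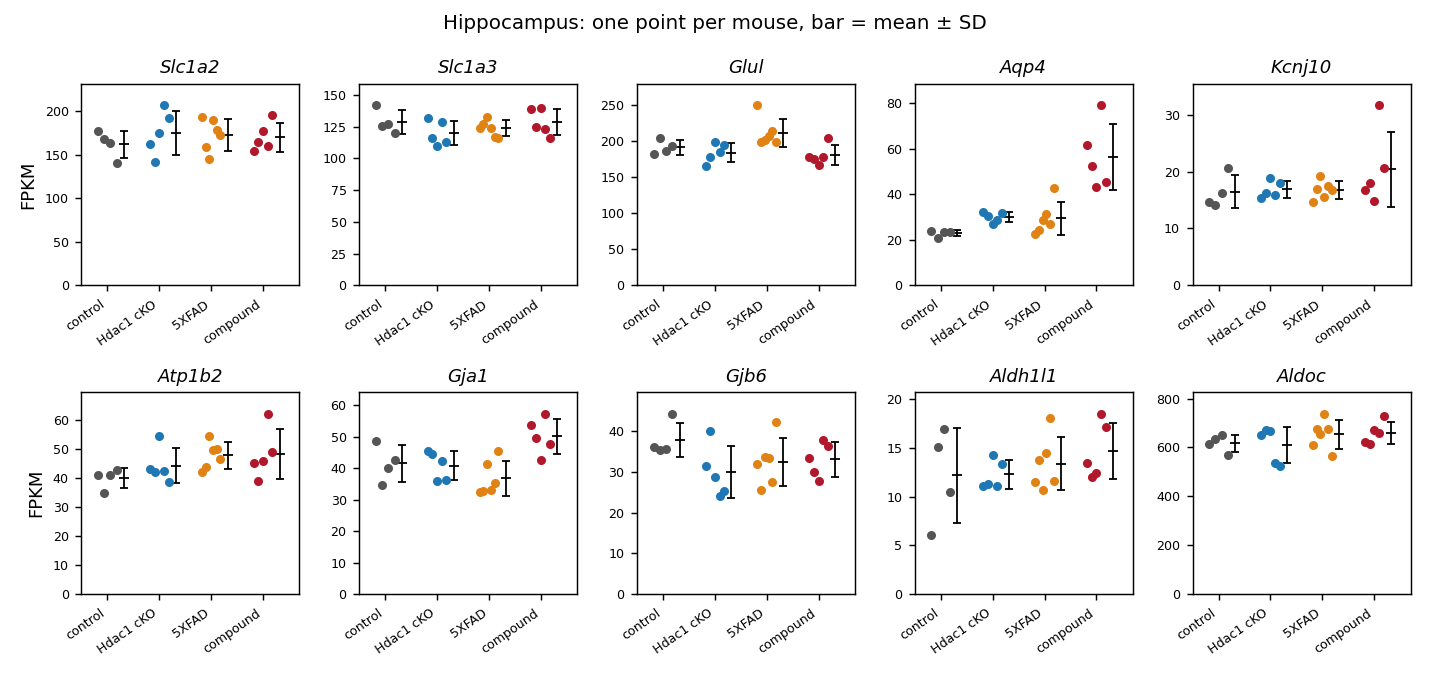
FPKM of the 10 genes in the hippocampus, each panel with its own linear axis from 0, 1 point per mouse for 4 control, 5 Hdac1 cKO, 6 5XFAD and 5 compound mice, with the mean and SD as a bar. The compound mice lie above all others for Aqp4 (43.2 to 79.2 FPKM, against at most 42.6), whereas in the other panels the groups overlap with the controls.

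The number of members past each threshold was small. None of the 10 was called at the adjusted p in Hdac1 cKO mice against controls (background 0.154% of genes tested), in 5XFAD mice against controls (0.708%) or in compound against 5XFAD mice (0.00698%), where 2, 1 and 3 members had an unadjusted p under 0.05 (background 11.7%, 10.7% and 6.61%). A single member, Aqp4, was called in compound mice against controls (0.662%) and in compound against Hdac1 cKO mice (1.49%). At an unadjusted p under 0.05 there were 2 members in each of these comparisons (10.5% and 10.3%). By the study's thresholds no member was a DEG in Hdac1 cKO mice (3.36%) or 5XFAD mice (2.95%) against controls, and Aqp4 was the only one in compound mice against controls (4.24%), 5XFAD (1.28%) and Hdac1 cKO mice (3.55%). The median log2 difference of the members was 0.01, 0.08 and 0.18 in Hdac1 cKO, 5XFAD and compound mice against controls, beside -0.00068, -0.01 and -0.01 for all genes tested. Those 3 comparisons share the same 4 controls.

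**Figure D2:**
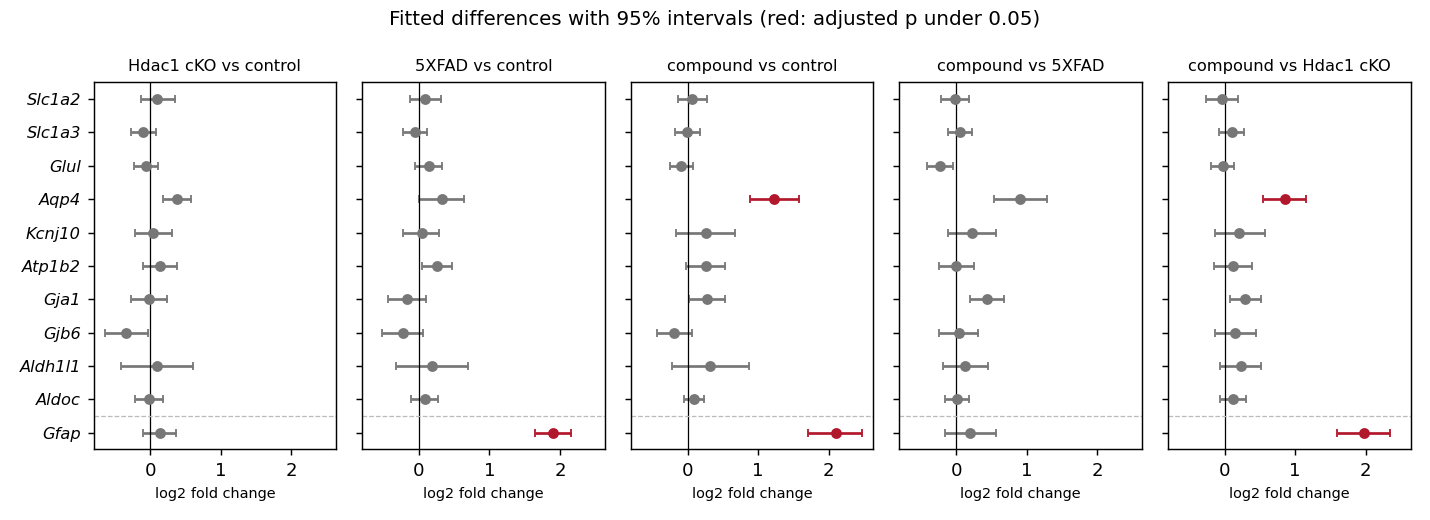
Fitted log2 fold changes (x axis) with 95% intervals for the 10 genes and, under the dashed line, Gfap, in 5 hippocampal comparisons. Aqp4 is at 1.23 and 0.86 in compound mice against control and Hdac1 cKO mice with an adjusted p under 0.05 (red), and Gfap at 1.90, 2.10 and 1.97 where 5XFAD differs.

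Aqp4, the water channel, was the member that changed. The controls were at 24.0, 20.9, 23.2 and 23.6 FPKM, and the Hdac1 cKO mice at 32.2, 30.5, 27.1, 28.7 and 31.7. In 5XFAD mice the lowest value was 22.5, the median 28.0 and the highest 42.6 FPKM, and the compound mice were at 61.5, 52.6, 43.2, 79.2 and 45.3. Every compound mouse was above every mouse of the other groups and every Hdac1 cKO mouse was above every control, while the 5XFAD mice overlapped with the controls and with the Hdac1 cKO mice. In order, the group mean was lowest in control, then came 5XFAD (29.4 ± 7.18, SD, n = 6) and Hdac1 cKO (30 ± 2.14, n = 5), and it was highest in compound (56.4 ± 14.6, n = 5). The middle pair did not differ beyond its spread.

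Aqp4 rose in compound mice against controls by a log2 difference of 1.23 (95% interval 0.88 to 1.58, adjusted p = 0.00317), a 2.35-fold change on that scale. Against Hdac1 cKO mice it rose by 0.86 (0.55 to 1.16, adjusted p = 0.0068). The difference to 5XFAD mice was of like size, 0.91 (0.54 to 1.29), with an unadjusted p of 0.000131 and an adjusted p of 0.234. That last call depended on the fit, since with all 4 groups in the same model the adjusted p was 0.0221. Groups did not overlap for Aqp4 in these 3 comparisons, as for 4.27%, 3.34% and 0.607% of genes tested, respectively.

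Each change alone came with a smaller difference in Aqp4. Hdac1 cKO mice were higher than controls by 0.37 (0.18 to 0.57, unadjusted p = 0.00118, adjusted p = 0.134), without overlap (4.23% of genes), and 5XFAD mice by 0.32 (-0.004 to 0.64, adjusted p = 0.472), with overlap. The latter was 0.21 without 5XFAD 6 and 0.20 with a replicate block. No member was without overlap in 5XFAD mice against controls (2.90%). The interaction term, the excess over the sum of both single differences, was 0.54 (0.09 to 0.99, unadjusted p = 0.0219, adjusted p = 0.481). It was 0.63 with a replicate block, 0.65 without 5XFAD 6 and 0.41 without compound 4. For this term no gene was called at the adjusted p (0%), while 8.97% had an unadjusted p under 0.05, among them 2 members, and 4.07% were DEGs, none of them a member.

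The rise of Aqp4 was set beside markers of other cells. Without the animal with the highest level, compound 4, the log2 difference to controls was 1.10 (adjusted p = 0.0018), and with Ttr as a covariate it was 1.35 (adjusted p = 0.0311). Microglial markers (8 genes) averaged 5.38 to 6.23 on the log2 scale in compound mice and 4.37 to 4.60 in controls, and the 19 reactive astrocyte genes 2.62 to 3.41 and 1.92 to 2.11. The 7 endothelial markers were at 2.04 to 2.43 in compound mice and 2.40 to 2.77 in controls. The 21 other astrocyte genes without Gfap were at 4.33 to 4.61 and 4.38 to 4.48, so their range in compound mice included that of the controls. All 8 choroid plexus markers (median -2.67, 5 lower DEGs) and all 5 ependymal markers (median -0.82, 2 lower DEGs) were below 0 in compound mice against controls. Of all genes tested there, 2.02% were lower DEGs. In the other Aqp4 comparisons, 5 of the 8 microglial markers (median 1.11) and 1 of 8 oligodendrocyte markers were called higher in compound than in Hdac1 cKO mice. So were 3 of the 22 other astrocyte genes, Gfap included (median 0.12), where 1.42% of all genes tested were called higher. All 7 choroid plexus markers tested (median 0.39) and all 5 ependymal markers (median 0.43) were above 0 there. Against 5XFAD mice all 8 microglial markers were above 0 (median 0.28, 3 with an unadjusted p under 0.05) and 6 of 7 endothelial markers below it (median -0.35, 3 with such a p). All 8 choroid plexus markers were also below 0 against 5XFAD mice (median -1.26, none with such a p). Among all genes tested there, 6.61% had such a p. In Hdac1 cKO mice against controls all 8 choroid plexus (median -3.27) and all 5 ependymal markers (median -1.23) were lower DEGs (2.87% of all genes). The part of these cell types in the Aqp4 results was not tested.

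The level of Aqp4 was also set against that of Gfap within each library. The ratio of Aqp4 to Gfap FPKM was 0.887 to 0.964 in controls, 0.847 to 1.38 in Hdac1 cKO, 0.190 to 0.447 in 5XFAD and 0.437 to 0.685 in compound mice. Thus the ratio was lower in all mice with the 5XFAD transgenes than in all mice without them. The ratio of Aqp4 to Kcnj10, its partner in the endfoot membrane, was 1.14 to 1.64 in controls, 1.43 to 2.10 in Hdac1 cKO, 1.42 to 2.53 in 5XFAD and 2.20 to 3.66 in compound mice.

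**Figure D3:**
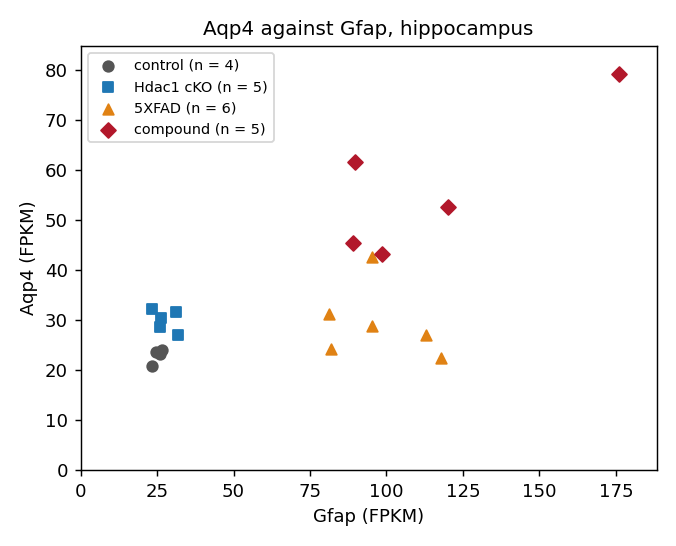
Aqp4 (y axis, FPKM) against Gfap (x axis, FPKM), 1 point per hippocampus, coloured by group. Gfap splits the mice by 5XFAD (23.4 to 32 FPKM without it, 81.3 to 176 with it), and within the upper range Aqp4 separates compound (43.2 to 79.2) from 5XFAD mice (22.5 to 42.6).

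The glutamate genes gave narrow intervals around no difference in most comparisons. Slc1a2, which carries most glutamate uptake in the forebrain, was at 177, 168, 163 and 141 FPKM in controls, 162, 142, 175, 207 and 192 in Hdac1 cKO, 145 to 193 (median 176) in 5XFAD and 154, 165, 177, 160 and 196 in compound mice. All 4 groups overlapped. Its log2 difference to controls was 0.10 (-0.14 to 0.35) in Hdac1 cKO, 0.09 (-0.13 to 0.31) in 5XFAD and 0.07 (-0.13 to 0.27) in compound mice, with adjusted p of 0.778, 0.802 and 0.854. The compound interval thus runs from a fold of 0.912 to 1.21.

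Slc1a3, the transporter that radial glia and Bergmann glia also use, was at 120 to 142 FPKM in controls, 110 to 132 in Hdac1 cKO, 116 to 133 in 5XFAD and 116 to 140 in compound mice. Its differences to controls were -0.10 (-0.28 to 0.08), -0.06 (-0.23 to 0.12) and -0.0014 (-0.18 to 0.18). The ratio of Slc1a2 to Slc1a3 averaged 1.26 ± 0.0689 (SD, n = 4) in controls and between 1.33 and 1.47 in the other groups, with overlap.

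Glul, glutamine synthetase, was at 181, 204, 185 and 193 FPKM in controls, and at 165, 177, 198, 184 and 194 in Hdac1 cKO mice. It reached from 198 to 249 (median 204) in 5XFAD, and the compound mice were at 177, 174, 166, 178 and 204. Of the compound mice, 4 lay under every 5XFAD mouse, and compound 5, at 204, was inside their range. The log2 difference between these groups was -0.23 (-0.41 to -0.05, unadjusted p = 0.0169, adjusted p = 0.734). Against controls it was 0.14 (-0.05 to 0.33) in 5XFAD and -0.09 (-0.25 to 0.08) in compound mice.

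The potassium-handling members showed no called difference. Kcnj10 was at 14.2 to 20.7 FPKM in controls, 15.3 to 18.9 in Hdac1 cKO and 14.6 to 19.2 in 5XFAD, and the compound mice were at 16.8, 18, 14.8, 31.7 and 20.6. The value of 31.7, in compound 4, stands above all others. This mouse also had the highest Aqp4, Atp1b2, Gja1, Aldh1l1, Gfap and Thy1 of all hippocampi. The Kcnj10 difference to controls was 0.26 in compound mice, with a wide interval of -0.17 to 0.68 (adjusted p = 0.702), and 0.09 without compound 4. Atp1b2 was at 40.9, 34.8, 40.9 and 42.7 FPKM in controls, 42.0 to 54.3 (median 48.1) in 5XFAD and 45.1, 39.0, 45.9, 62.0 and 48.8 in compound mice. The difference was 0.25 (0.04 to 0.47, unadjusted p = 0.0232, adjusted p = 0.381) in 5XFAD and 0.26 (-0.02 to 0.53, adjusted p = 0.506) in compound mice, the latter 0.16 without compound 4, and in both groups the values overlapped with the controls.

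Neither connexin was called or a DEG in any comparison, and the difference between the 2 genes was not tested. Gja1 was at 48.6, 34.6, 39.9 and 42.7 FPKM in controls and at 45.4, 44.6, 35.8, 42.1 and 36.3 in Hdac1 cKO mice. In 5XFAD mice it was lowest, from 32.4 through a median of 34.2 to 45.5, and the compound mice, at 53.7, 49.5, 42.5, 57.2 and 47.7, were highest. One 5XFAD mouse (45.5) reached into the compound range. The difference between compound and 5XFAD mice was 0.44 (0.20 to 0.68, unadjusted p = 0.00139, adjusted p = 0.613), and the interaction term was 0.46 (0.12 to 0.80, unadjusted p = 0.00981, adjusted p = 0.41). Compound mice were above controls by 0.27 (0.02 to 0.53, adjusted p = 0.44) and above Hdac1 cKO mice by 0.29 (0.07 to 0.51, adjusted p = 0.309). Without compound 4 the differences were 0.39 to 5XFAD mice, 0.22 to controls and 0.24 to Hdac1 cKO mice. The interaction term was then 0.41. Without 5XFAD 6 the difference to 5XFAD mice was 0.51.

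Gjb6, connexin 30, had its highest group mean in controls, at 36.1, 35.4, 35.7 and 44.3 FPKM. The Hdac1 cKO mice were at 31.5, 40.0, 28.8, 24.2 and 25.3, of which 4 lay under all controls. Values ran from 25.5 to 42.3 (median 32.7) in 5XFAD and were 33.5, 29.9, 27.8, 37.9 and 36.5 in compound mice. Its differences to controls were -0.34 (-0.65 to -0.04, unadjusted p = 0.0291, adjusted p = 0.352), -0.23 (-0.52 to 0.06, adjusted p = 0.573) and -0.19 (-0.44 to 0.06, adjusted p = 0.606), the last of which was -0.12 without control 4. The ratio of Gja1 to Gjb6 was 0.964 to 1.35 in controls, 1.11 to 1.74 in Hdac1 cKO, 0.987 to 1.29 in 5XFAD and 1.31 to 1.65 in compound mice, so that compound and 5XFAD mice did not overlap in it.

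**Figure D4:**
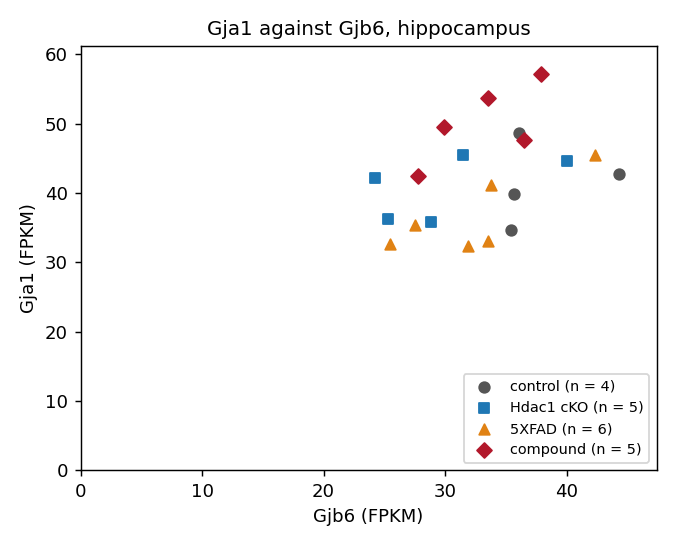
Gja1 (y axis, FPKM) against Gjb6 (x axis, FPKM), 1 point per hippocampus, coloured by group. The compound mice (42.5 to 57.2 for Gja1) lie toward the top, overlapping with each other group in Gja1. Their Gjb6 values of 27.8 to 37.9 are inside the range of the 5XFAD mice (25.5 to 42.3).

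The metabolic members did not separate the groups. Aldh1l1, the folate enzyme used as a general astrocyte label, was at 6.07, 15.1, 17.0 and 10.5 FPKM in controls, 11.1 to 14.3 in Hdac1 cKO, 10.7 to 18.1 in 5XFAD and 12 to 18.5 in compound mice. The spread among controls (a coefficient of variation of 40.3%) was the widest of any member in any hippocampal group, and the interval of the compound difference, 0.32 (-0.22 to 0.87), was accordingly wide. Control 1 was the lowest of the controls, and without it the compound difference was 0.05, while that of Hdac1 cKO mice went from 0.09 to -0.18 and that of 5XFAD mice from 0.19 to -0.08. Aldoc, the brain isoform of the glycolytic enzyme aldolase, was at 570 to 651 FPKM in controls and 614 to 727 in compound mice, with a difference of 0.09 (-0.05 to 0.24, adjusted p = 0.678).

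Members varied together only in part. After group means were removed, the 45 pairs of members had a median Pearson r of -0.04 across the 20 mice, and 20 pairs were above 0. The highest was Aqp4 with Gja1 at 0.73 (Spearman's rho 0.70), and 0.60 without the 2 mice farthest from the median in Aqp4. Kcnj10 with Atp1b2 was at 0.71, and 0.60 without 2 such mice, and the lowest was Slc1a3 with Aldh1l1 at -0.58. Mice share library depth and tissue composition across genes, so these are descriptions without a test.

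Among the 8266 genes that averaged 5 FPKM or more, the pattern of Aqp4 over the 20 mice, group differences included, was most like that of Atp6v1a, a subunit of the vesicular proton pump (Spearman's rho 0.92), the microglial receptor P2ry12 (0.88) and Dhrs1 (0.81). Gja1 was at 0.69 and Gfap at 0.46 to Aqp4. For Gja1 the genes were Nptn (0.80), Gas5 (0.79) and P2ry12 (0.78). The nearest for Slc1a2 were Vapb (0.87), Cbfa2t3 (0.82) and Vash1 (0.79), while Slc1a3 was at -0.18.

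Lists of further genes from the same pathways were counted over the same fits. Of the glutamate and glutamine genes, 15 or 16 were tested in each comparison, and none was called or a DEG in any. Of 23 or 24 water and ion genes, 4 were lower DEGs in Hdac1 cKO mice against controls (2.87% of all genes), led by the calcium channel Trpv4 (-1.60) and the water channel Aqp1 (-1.5), both abundant in choroid plexus and here lower together with all 8 choroid plexus markers (median -3.27) and all 5 ependymal markers tested (median -1.23). In compound mice Aqp1 was the only DEG of this list against controls (-1.32). Fxyd1, a regulator of Na+/K+-ATPase, was the only pathway gene called anywhere, higher in compound than in Hdac1 cKO mice by 1.25 (adjusted p = 0.000556). It was at 195 to 365 FPKM in compound and 96.7 to 141 in Hdac1 cKO mice, and at 174 to 343 in 5XFAD mice, from which compound mice differed by 0.21 (adjusted p = 0.826). Control 1 was at 102 FPKM and the other controls at 216 to 266. It was also a DEG in the interaction term (1.05, unadjusted p = 0.00508).

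Of 11 gap junction genes tested in the hippocampus, none was called, and Gjb2 in compound against Hdac1 cKO mice (0.67, adjusted p = 0.312) was the only DEG. Among 20 or 21 genes of energy and one-carbon metabolism none was called. Slc16a3, a lactate exporter, was the DEG of this list in 5XFAD against controls (0.75, adjusted p = 0.168) and, with the muscle-type glycogen phosphorylase Pygm (-0.64), in compound against controls (1.01, adjusted p = 0.0636), and it was also a DEG in compound against Hdac1 cKO mice (0.72). By comparison, 8 of 17 reactive astrocyte genes were called in 5XFAD mice, 6 of 17 in compound mice against controls and 9 of 17 in compound against Hdac1 cKO mice, all higher, where 0.667%, 0.627% and 1.42% of all genes tested were called higher. In 5XFAD mice against controls 5 of 8 microglial markers were also called higher (median 0.96). In that comparison 3 of 5 ependymal markers were lower DEGs (median -0.72, 1.23% of all genes), and all 8 choroid plexus markers were below 0 (median -1.48). In Hdac1 cKO mice against controls none of the 13 reactive genes tested was called, 3 were lower DEGs (2.87% of all genes) and the median was -0.26, and in the nuclei 1 of 15 was a lower DEG (1.34% of all genes), with a median of -0.24.

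In the GFAP+ nuclei of the cortex, the label was checked first. The 22 other astrocyte markers averaged 7.17 to 7.50 on the log2 scale, and the neuronal markers 4.12 to 4.63, against 4.40 to 4.74 and 7.03 to 7.31 in the hippocampus. Oligodendrocyte markers were at 4.52 to 6.15 in the nuclei and 6.06 to 7.01 in the hippocampus. Markers of their precursors were higher in the nuclei, at 2.36 to 3.97 against 1.48 to 2.13. The 2 kinds of library were made with different kits from different tissue, and no level was tested between them.

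No member was called in Hdac1 cKO nuclei against control nuclei (background 0.0133%) and none was a DEG (2.58%), while 3 had an unadjusted p under 0.05 (4.70%). Aqp4 was at 115, 75.5 and 61.3 FPKM in control nuclei (control 1, 3 and 4) and at 121, 104, 127 and 118 in Hdac1 cKO nuclei. Control 1 reached into the Hdac1 cKO range and the other controls lay under it. The difference was 0.53 (0.08 to 0.97, unadjusted p = 0.0245, adjusted p = 0.984), and leaving out single samples moved it between 0.33 and 0.77. Aldh1l1 was at 92.3, 70.8 and 82.6 FPKM in control and 132, 116, 125 and 89.2 in Hdac1 cKO nuclei, a difference of 0.48 (0.11 to 0.86, adjusted p = 0.984).

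Glul was at 192, 178 and 180 FPKM in control nuclei and 247, 200, 231 and 242 in Hdac1 cKO nuclei, without overlap, and differed by 0.32 (0.03 to 0.62, unadjusted p = 0.036, adjusted p = 0.984). Slc1a3, at 800 to 848 and 867 to 923, and Atp1b2, at 258 to 292 and 305 to 322, also did not overlap, as for 5.72% of genes tested, with differences of 0.11 (-0.19 to 0.41) and 0.21 (-0.08 to 0.49). Slc1a2 was at 682 to 695 FPKM in control and 656 to 768 in Hdac1 cKO nuclei, a difference of 0.04 (-0.26 to 0.34). The connexins differed by 0.02 (-0.36 to 0.41, Gja1) and -0.05 (-0.43 to 0.32, Gjb6), Kcnj10 by 0.14 (-0.23 to 0.51) and Aldoc by -0.0045 (-0.42 to 0.41). The median over the members was 0.12, beside -0.01 for all genes. In the same comparison the medians of the markers of other cells were -0.24 for neurons, -0.28 for oligodendrocytes (7 of 8 below 0), -0.25 for their precursors (4 of 4), -0.23 for microglia and -0.28 for endothelium, and 0.67 for choroid plexus, of which 2 were higher DEGs. Among all genes tested in the nuclei, 1.24% were higher DEGs. None of these markers was called, and their part in the members' values was not tested.

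**Figure D5:**
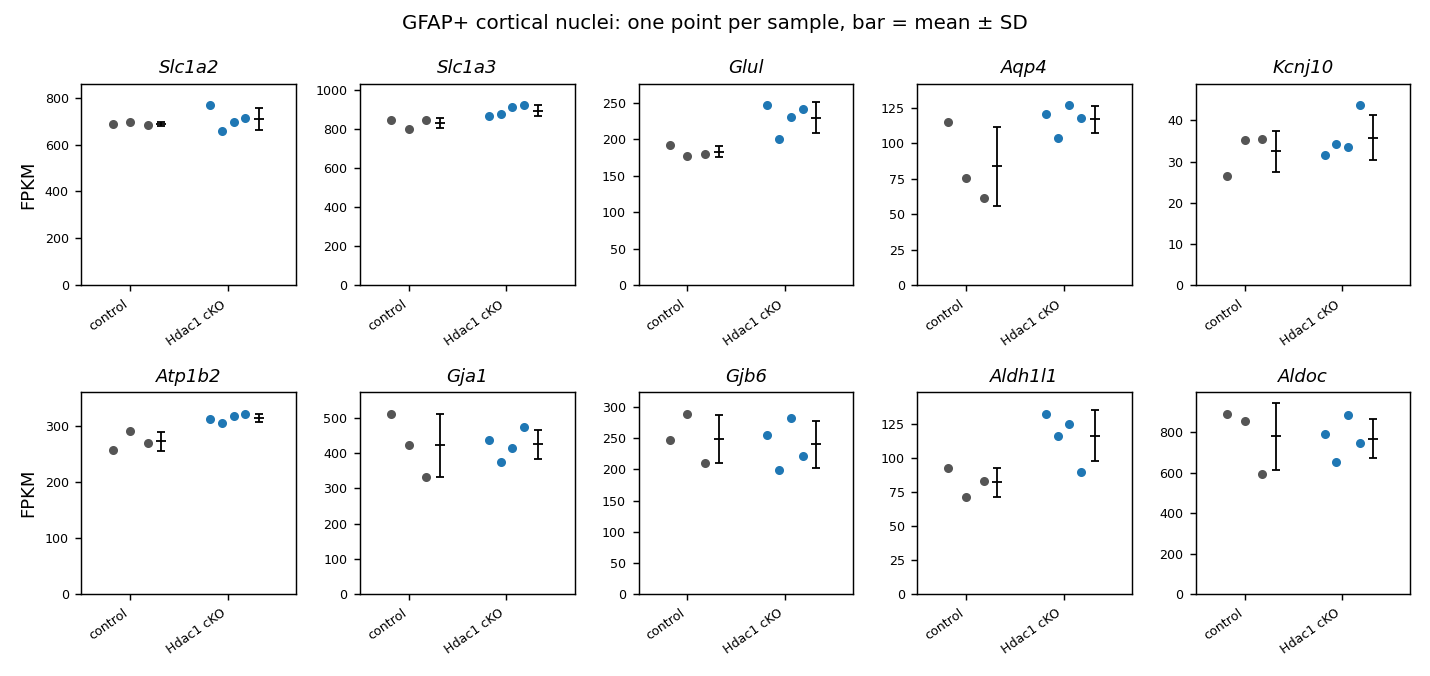
FPKM of the 10 genes in GFAP+ nuclei of the cortex, each panel with its own linear axis from 0, 1 point per sample for 3 control and 4 Hdac1 cKO preparations, with the mean and SD as a bar. Glul, Slc1a3 and Atp1b2 do not overlap between groups, and Aqp4 overlaps through the control sample at 115 FPKM.

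Of the pathway lists, the water channel Aqp11 was lower (-0.63, unadjusted p = 0.0103) and the folate enzyme Mthfd1l higher (0.65, unadjusted p = 0.0408) as DEGs in Hdac1 cKO nuclei, both with an adjusted p of 0.984. For Aqp4 the differences with Hdac1 loss stand side by side as 0.37 in control hippocampus, 0.91 in 5XFAD hippocampus and 0.53 in nuclei. None was called in its own limma fit (adjusted p = 0.134, 0.234 and 0.984). For Slc1a2 the differences were 0.10, -0.02 and 0.04, for Gja1 -0.02, 0.44 and 0.02, and for Glul -0.06, -0.23 and 0.32. The value in control hippocampus was -0.34 for Gja1 and 0.06 for Glul with Ttr as a covariate. That of Gja1 in nuclei was 0.14 under quantile normalization and -0.14 without control 4.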

How the data were processed

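The members and gene lists were chosen with earlier results of these data known. RNA-seq of 27 of the 34 listed samples was used. The 7 samples not analysed here are those of ChIP-seq and control 2 of the sorted nuclei. The authors deposited FPKM values for 23951 genes per sample, with no fragment counts. They aligned hippocampal 3′ Digital Gene Expression reads with Tophat2 and computed FPKM with Cufflinks 2.0.0 on the UCSC mm9 annotation. The nuclei were made into SMART-Seq v4 libraries, and the submitters' processing notes name TopHat, Bowtie and Cufflinks 2.0.0. The absolute depth is unknown. Relative depth, from the smallest steps between FPKM values, ranged from 0.754 to 2.35 in the hippocampus and 0.869 to 1.26 in the nuclei.

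Values were taken as log2(FPKM + 1). A gene entered a comparison if it averaged 0.5 FPKM or more in its samples, and limma 3.58.1 (R 4.3.3) was run on these genes (trend and robust, two-sided, Benjamini-Hochberg over all genes tested). The fit was also run on simulated independent noise, with large shifts added to some genes. That run does not speak to tissue composition, depth or small differences. Only the groups compared entered a fit, and the interaction used all 4 hippocampal groups. Labels do not say that samples came from separate animals in every case, so p-values measure the spread between these samples. Named were the 10 members in every comparison, Hdac1, Thy1 and Gfap, for each pathway list up to 3 genes per direction with an adjusted p under 0.05 or else up to 2 DEGs with the largest change, and the 3 genes most like Slc1a2, Aqp4 and Gja1. Alternatives were a pseudocount of 0.1, no filter or one at 1 FPKM, quantile normalization, median scaling, plain limma, all 4 groups in the same fit, Ttr as a covariate, a replicate block and leaving out each sample. Promoter windows are from RefSeq and were read with Python 3.11.15. Thy1, whose promoter drives the transgenes, was at 303 to 388 FPKM without and 1563 to 2357 with 5XFAD.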

Additional observations from a re-analysis of the deposited data

Results flagged for a closer look

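A single sample stood far from the rest of its group in 3 of 50 sets of member and group, about what chance gives (1 in 20). Glul was at 249 FPKM in 5XFAD mouse 1, with the next value at 214. Gjb6 was at 44.3 FPKM in control mouse 4, with the next at 36.1. Atp1b2 was at 54.4 FPKM in Hdac1 cKO mouse 3, with the next at 43.0. Of 40 pairs of effects compared, 1 was flagged for opposite directions, that of Hdac1 loss on Glul in 5XFAD hippocampus and in nuclei. Fitted differences of opposite sign also occurred in pairs that were not flagged, such as Gjb6 with Hdac1 loss (-0.34 in control and 0.04 in 5XFAD hippocampus). For Glul, every compound mouse was below the mean of the 5XFAD mice (mean log2 difference -0.23) and every Hdac1 cKO sample of GFAP+ nuclei was above the mean of the control nuclei (0.32), a gap of 0.55 between the effects. This difference between tissues was not tested, and the libraries were made with different kits.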

How the results depend on the processing

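Aqp4 stayed past the adjusted threshold in all 18 alternatives for compound mice against controls (adjusted p 6.92e-05 to 0.0311) and in all 19 against Hdac1 cKO mice (0.00174 to 0.0247). No result changed sign with a p under 0.1 in either fit, and no scaling moved the median of all genes by over 0.1. The count of members called in compound against 5XFAD mice went from 0 to 1 with all 4 groups in the same fit (Aqp4 at 0.91, adjusted p 0.0221 to 0.576 over all alternatives). The count of DEG members in Hdac1 cKO mice went from 0 to 1 with Ttr as a covariate. In the interaction it was 0 to 1 with single mice left out, reaching 1 without 5XFAD 6, compound 3 or compound 5, and in the nuclei 0 to 1, reaching 1 without control 1 or Hdac1 cKO 4. Replicate numbers did not pair the mice (correlation of deviations of same-numbered samples -0.113 to 0.0778). With the replicate block, DEG members in the interaction went from 0 to 1, and genes called over the whole table from 22 to 0 (Hdac1 cKO against controls), 102 to 48 (5XFAD), 95 to 34 (compound) and 2 to 5 (nuclei). Whole-table calls also moved with Ttr as a covariate, to 0, 61 and 29 in these hippocampal comparisons, and to 207 for compound mice and 1 for Hdac1 cKO mice with all 4 groups in the same fit. Without single mice they ranged from 2 (without control 3) to 290 (without control 1) for Hdac1 cKO against controls, from 41 (without control 4) to 105 for compound against controls, from 1 to 4 for compound against 5XFAD and from 2 to 9 in the nuclei. No filter gave 9 and plain limma 8 for Hdac1 cKO. A pseudocount of 0.1 gave 641 DEGs for 5XFAD against controls, 425 otherwise, and 325 for compound against 5XFAD, 184 otherwise. With no fragment counts in the files, the depth behind single values is unknown, and Aldh1l1 had the widest interval of the members in each of the 3 comparisons with control hippocampi. The causes were not tested.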
